A study of Rattus norvegicus with 6 samples.

Results

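The genes described here are 106 of the 10411 genes that the array reads with a probe set of their own. They were taken by symbol, as every gene named Rab with a number, Vamp, Stx, Stxbp, Snap with a number, Syt, Scamp, Cadps or Exoc. They encode Rab GTPases and their partners, the SNARE proteins, the syntaxin-binding proteins, synaptotagmins, secretory carrier membrane proteins, the CAPS priming factors and the exocyst. The array carries 143 probe sets for them, and each gene was read on its probe set of highest mean. Pancreas was compared between 3 rats on an ethanol diet and 3 rats on a control diet, with 1 array per rat, to ask what chronic ethanol consumption does to this organ. The sources used here do not give strain, age, sex or length of feeding. The design text of the series names 3 rats for each diet, and the labels give 3 numbered replicates of each, so 1 replicate was taken as 1 rat. Tissue RNA was measured without sorting, so fewer cells of a type and less RNA per cell cannot be told apart.

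The acinar cell stores digestive enzymes in zymogen granules and releases them at its apical surface when a meal or a hormone calls for secretion. Rab GTPases, which switch between a GTP-bound and a GDP-bound form, mark each membrane and recruit the motors and tethers that bring a vesicle to its target. SNAREs on the vesicle (VAMPs) then pair with SNAREs on the target (syntaxins and SNAP proteins) to fuse the membranes, with syntaxin-binding proteins guiding the pairing, priming factors readying the granule and synaptotagmins sensing calcium.

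Acinar identity of the tissue was checked on 13 fixed acinar markers, all of them on the array and above the intensity filter. Their summed intensity was 1467071 to 1543601 in ethanol rats and 1441024 to 1464154 in control rats, a narrow separation, and none of the 13 passed. That sum rests on bright enzymes such as Cpa1 (means 165503 in ethanol and 163511 in control rats) and says little of dimmer markers. Ptf1a alone reached an unadjusted limma p under 0.05, against 18.8% of all tested genes. It read 12910 ± 1019 in ethanol rats and 9410 ± 677 in control rats (SD, n = 3 each). Ptf1a, Pnlip, Prss2 and Gp2 lay above all controls (against 11.0% of all tested genes), and the others overlapped. Between arrays, log2 values over all probe sets (no independent replicates) correlated with r of 0.913 to 0.944. Of the 106 genes, 77 lay above the intensity filter, set at the 40th percentile of mean log2 intensity, and were tested with limma. The other 29 were too dim to be tested and are given by their values.

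The promoters of the 4 genes singled out at the start (Cadps, Rab3d, Rab27b and Vamp8) are shown because Rab3d is known from mouse and human cells as a direct target of Bhlha15 (Mist1), a basic helix-loop-helix factor of acinar cells that binds E-boxes. Each runs from 250 bases before to 50 bases after the annotated start (RefSeq, rat build GRCr8), 5′ to 3′ on the gene's strand, with every E-box, CANNTG on either strand, in capitals.
Cadps, chr15:14720476-14720775, plus strand: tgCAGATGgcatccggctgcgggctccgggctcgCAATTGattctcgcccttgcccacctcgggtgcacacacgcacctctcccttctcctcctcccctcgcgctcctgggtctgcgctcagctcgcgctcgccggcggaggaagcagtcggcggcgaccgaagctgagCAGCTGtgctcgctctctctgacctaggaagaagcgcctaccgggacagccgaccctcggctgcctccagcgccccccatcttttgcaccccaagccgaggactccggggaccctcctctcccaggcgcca
Rab3d, chr8:28725218-28725517, minus strand: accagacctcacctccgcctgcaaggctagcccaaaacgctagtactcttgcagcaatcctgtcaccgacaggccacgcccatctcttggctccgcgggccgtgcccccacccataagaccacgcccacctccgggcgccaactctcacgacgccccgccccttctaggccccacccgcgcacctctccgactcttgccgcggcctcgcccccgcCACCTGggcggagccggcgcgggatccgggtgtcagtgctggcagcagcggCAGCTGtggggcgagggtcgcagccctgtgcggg
Rab27b, chr18:65938534-65938833, minus strand: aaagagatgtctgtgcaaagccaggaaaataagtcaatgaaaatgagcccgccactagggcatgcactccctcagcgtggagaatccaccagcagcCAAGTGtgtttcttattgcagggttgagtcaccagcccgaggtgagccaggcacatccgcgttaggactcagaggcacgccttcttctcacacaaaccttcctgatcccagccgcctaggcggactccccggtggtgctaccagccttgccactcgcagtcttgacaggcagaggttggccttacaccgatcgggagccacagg
Vamp8, chr4:106005593-106005892, minus strand: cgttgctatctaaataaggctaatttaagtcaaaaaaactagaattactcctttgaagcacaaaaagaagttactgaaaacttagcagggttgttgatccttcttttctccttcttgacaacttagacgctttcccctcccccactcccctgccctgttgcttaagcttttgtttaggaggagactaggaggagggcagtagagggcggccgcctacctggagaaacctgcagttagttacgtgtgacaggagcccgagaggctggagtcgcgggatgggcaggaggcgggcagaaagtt
Cadps held 3 E-boxes, Rab3d 2, Rab27b 1 and Vamp8 0. An E-box stood in 57 of the 85 member promoters that the table holds (67.1%) and in 71.6% of all 27457 promoters of that length. The form CAGCTG, which overlaps the general motif, was present in Cadps and Rab3d, in 22.4% of member promoters and in 15.1% of all. The form CATATG stood in 0 of the 85 and in 3.96% of all. The last motif searched, CCACG on either strand, a core of elements bound by factors of the unfolded protein response, stood in 52.9% of member promoters and 32.5% of all. A match is a description of these letters and not a binding site. The shares were not adjusted for base composition, and the differences between them were not tested. On the arrays Bhlha15 itself read 8162, 5584 and 5706 in ethanol rats and 6761, 6344 and 6848 in control rats, so the diets overlapped (log2 change -0.06, SE 0.18, limma adjusted p = 0.888).

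Of the 77 tested genes, Cadps alone passed at a limma adjusted p under 0.05, and it fell. Over all 7106 tested genes the share that passed was 0.436%, and the share that passed and fell 0.366%. Cadps encodes CAPS1, a protein that primes dense-core vesicles for calcium-triggered release. It read 328, 285 and 342 in ethanol rats, against 692, 710 and 1003 in control rats. Every ethanol rat lay below every control rat, and the ethanol rats lay close together while control replicate 3 stood above the other two. The mean was 318 ± 29.7 in ethanol rats and 802 ± 175 in control rats (SD, n = 3 each), 39.7% of control. The log2 change was -1.19 (95% interval -1.60 to -0.79, SE 0.18, limma adjusted p = 0.0448). All 6 fits that left out 1 array kept the direction and lost the call, with changes from -1.28 to -1.03 and adjusted p from 0.0655 to 0.151. The call was also lost with no intensity filter (adjusted p = 0.161), a constant of 20 (0.0501) and the replicate block (0.1). Calls were lost across the array in these fits. Of 9520 tested probe sets 39 passed in the main fit, 2 to 38 with an array left out, 12 with the constant of 20 and 6 with the block. With no filter 0 of 15866 passed. Cadps cleared the filter through the control rats: its mean log2 intensity was 8.52 in ethanol rats, where all 3 arrays lay under the threshold of 8.79, and 9.72 in control rats.

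Cadps2 encodes CAPS2, the paralog of CAPS1. It read 640, 363 and 362 in ethanol rats, against 692, 639 and 821 in control rats. Ethanol replicates 2 and 3 lay well below the controls, while ethanol replicate 1 lay just above the lowest control. Its log2 change was -0.64 (95% interval -1.16 to -0.13, limma adjusted p = 0.189), so it did not pass. CAPS proteins are known from endocrine and neural cells, and Cadps is also on the list of acinar secretory machinery used below. Acinar markers are given above, and islet and neuronal markers stood as follows. Of 17 islet markers 14 were on the array, with Pcsk2 below 0 on 1 ethanol array and 1 control array, and their summed intensity was 119273 to 186790 in ethanol rats and 152728 to 187113 in control rats. None of the 11 tested islet markers passed or reached an unadjusted p under 0.05, and their median log2 change was 0.11. The 11 neuronal markers, which include Snap25, summed to 4790 to 5337 in ethanol rats and 3991 to 4275 in control rats, higher in every ethanol rat, with Gap43 below 0 on 1 control array. Tubb3 gave the largest part of that gap, at 728 ± 311 in ethanol rats and 345 ± 116 in control rats (SD, n = 3 each). Nefl, Stmn2 and Elavl4 were lower on average in ethanol rats and the others higher. Of the 11, 4 were tested and none passed. Tubb3 alone of the 4 reached an unadjusted limma p under 0.05, against 18.8% of all tested genes, and was higher in every ethanol rat. The part of acinar, islet and neuronal cells in the Cadps result was not tested.

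**Figure D1:**
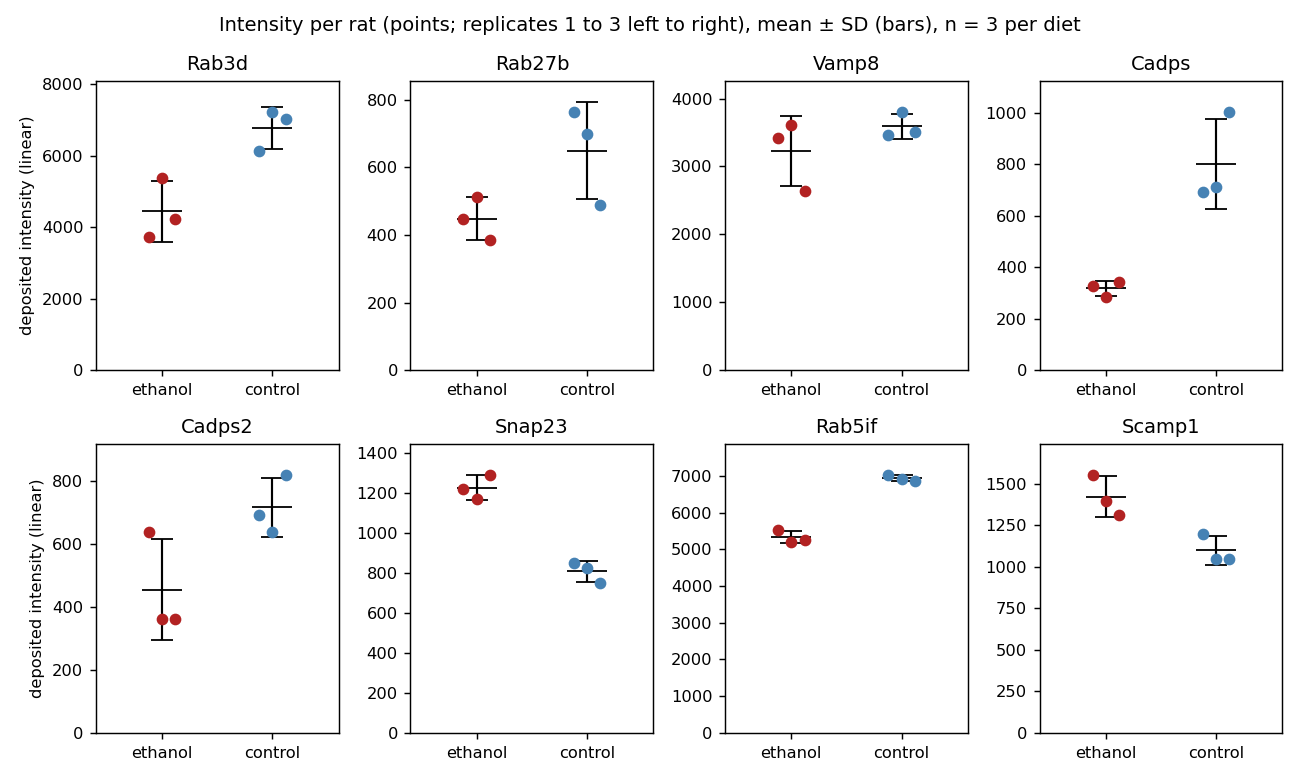
Deposited intensity on a linear scale (vertical axis) of 8 genes in each of 3 ethanol rats and 3 control rats, with mean and SD as bars. The ethanol rats lie below all control rats for Cadps, Rab3d and Rab5if and above them for Snap23 and Scamp1, while the diets overlap for Vamp8, Rab27b and Cadps2.

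Rab3d and Rab27b, the Rabs most tied to the zymogen granule, read lower on average in ethanol rats and did not pass. Rab3d sits on the zymogen granule membrane. It read 3722, 5383 and 4218 in ethanol rats, against 6119, 7223 and 7018 in control rats. The diets did not overlap, and the mean was 4441 ± 853 in ethanol rats and 6787 ± 587 in control rats (SD, n = 3 each). The log2 change of Rab3d was -0.62 (95% interval -1.02 to -0.22, SE 0.17, limma adjusted p = 0.138), and it passed in 1 alternative fit, with a variance trend (adjusted p = 0.0469). In that fit 249 of 9520 tested probe sets passed, against 39 in the main fit. Rab27b, which acts at the last steps before granule fusion, read 447, 512 and 386 in ethanol rats, against 764, 698 and 488 in control rats. The lowest control rat lay below the highest ethanol rat, so the diets overlapped. Its log2 change was -0.48 (95% interval -0.92 to -0.03, SE 0.19, limma adjusted p = 0.242).

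The remaining Rabs of secretory granules gave smaller differences or were too dim. Rab26, a granule Rab that is also a known Bhlha15 target, read 3213, 3387 and 3321 in ethanol rats and 4155, 4149 and 3446 in control rats. The ethanol rats lay below all controls, by a narrow margin at control replicate 3 (log2 change -0.24, limma adjusted p = 0.413). Rab3b was at 912, 788 and 844 in ethanol rats and 762, 848 and 818 in control rats, with no separation. Rab27a, the close relative of Rab27b, fell under the intensity filter and has no test. It read 166, 173 and 30 in ethanol rats and 250, 336 and 213 in control rats, without overlap. Rab3a and Rab3c, the forms typical of neurons, were likewise untested, and Rab3c reached no more than 57 on any array.

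Vamp8, a VAMP of the zymogen granule that mouse acinar cells need for much of their enzyme release, gave no detectable difference. It read 3416, 3613 and 2639 in ethanol rats and 3470, 3802 and 3505 in control rats. Ethanol replicate 3 was the lowest of the 6, and the other ethanol rats lay within or next to the control range. The log2 change of Vamp8 was -0.17 (95% interval -0.54 to 0.20, SE 0.16, limma adjusted p = 0.616), and it was -0.03 without ethanol replicate 3 and -0.25 without ethanol replicate 2. The interval reaches from a decrease of about the size seen in Rab27b to a small increase. None of the 5 tested VAMPs reached an unadjusted p under 0.05, and on each of them the diets overlapped, where 18.8% and 26.4% of all tested genes reached that p or did not overlap. So few genes say little against these shares. Vamp2, the second granule VAMP, varied widely within each diet, at 871, 930 and 2009 in ethanol rats and 1503, 1696 and 907 in control rats. Log2 changes were -0.16 (SE 0.34) for Vamp2, -0.05 (SE 0.15) for the endosomal Vamp3 and 0.13 (SE 0.15) for Vamp5. Vamp7 was too dim to be tested.

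Snap23, the widely expressed SNAP protein that serves exocytosis outside neurons, had the smallest p after Cadps and did not pass. It read 1218, 1169 and 1290 in ethanol rats, against 849, 822 and 750 in control rats. All ethanol rats lay above all control rats, with a mean of 1226 ± 60.9 in ethanol rats and 807 ± 51.2 in control rats (SD, n = 3 each). The log2 change of Snap23 was 0.57 (95% interval 0.27 to 0.88, limma adjusted p = 0.101). A second, dimmer probe set of Snap23 read 958, 867 and 775 in ethanol rats and 700, 807 and 654 in control rats, an overlap of 1 rat (log2 change 0.25, SE 0.15). Snap29, which acts on internal membranes, was at -0.16 (SE 0.15). Snap25, the neuronal SNAP, and Snap91, which shares the name but is a clathrin assembly protein, were too dim to be tested.

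Among the 9 tested syntaxins 1 had an unadjusted p under 0.05, against 18.8% of all tested genes. Stx5, the syntaxin of transport between endoplasmic reticulum and Golgi, read 2139, 2130 and 3073 in ethanol rats and 3104, 3302 and 3363 in control rats. Ethanol replicate 3 lay just under the lowest control, and the other ethanol rats well below it (log2 change -0.43, SE 0.18, limma adjusted p = 0.247). Syntaxins of the granule, the cell surface and endosomes did not reach that level. Stx3, found on zymogen granules, was at 311, 511 and 447 in ethanol rats and 625, 441 and 895 in control rats, an overlapping arrangement with a log2 change of -0.55 (SE 0.26). A dimmer, untested probe set of Stx3 had a change of 0.07. Stx4 of the basolateral membrane was at -0.30 (SE 0.22), and Stx7 of late endosomes at 0.02 (SE 0.17).

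Of the 4 syntaxin-binding proteins 0 reached an unadjusted p under 0.05, against 18.8% of all tested genes. Stxbp2 (Munc18b), the apical partner of Stx3, read 2161, 1772 and 1798 in ethanol rats and 1643, 1470 and 1437 in control rats. The diets did not overlap, with a log2 change of 0.32 (95% interval -0.02 to 0.66, limma adjusted p = 0.295). Stxbp3 (Munc18c), the basolateral partner of Stx4, was at 786, 1258 and 873 in ethanol rats and 1085, 1138 and 1223 in control rats, where ethanol replicate 2 lay above every control (log2 change -0.26, SE 0.19).

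Synaptotagmins were mostly dim in this tissue: 7 of 13 lay under the filter, and of the other 6, 0 reached an unadjusted p under 0.05, against 18.8% of all tested genes. Syt8 read 2225, 1521 and 1857 in ethanol rats and 1599, 2277 and 1676 in control rats, with no order by diet (log2 change 0.01, SE 0.20). Syt9 was at 0.25 (SE 0.29) and Syt11 at 0.23 (SE 0.21). Among the untested ones Syt10 and Syt12 were higher in all ethanol rats and Syt17 lower in all of them. Syt17 read 87, 73 and 99 in ethanol rats and 247, 285 and 186 in control rats. Syt13, at 236, 290 and 143 in ethanol rats and -22, 4 and 211 in control rats, overlapped by 1 rat of each diet.

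Secretory carrier membrane proteins, tetraspan proteins of granules and recycling vesicles, differed in both directions without passing. Scamp1 read 1556, 1399 and 1313 in ethanol rats and 1200, 1049 and 1050 in control rats, higher in every ethanol rat (log2 change 0.36, SE 0.14, limma adjusted p = 0.238). Its second probe set had a change of -0.07 and overlapping diets. Scamp4 read 952, 1069 and 1149 in ethanol rats and 1252, 1565 and 1506 in control rats, lower in every ethanol rat (-0.43, SE 0.15, limma adjusted p = 0.196). Scamp2 was at 0.23 (SE 0.20). The exocyst, an octameric complex that tethers vesicles to the plasma membrane, had 6 tested members. Changes were positive for 4 and negative for 2, where 51.4% of all tested genes were negative. An unadjusted limma p under 0.05 was seen for 1 of the 6, against 18.8% of all tested genes. Exoc6 read 1175, 996 and 1052 in ethanol rats and 835, 938 and 653 in control rats, without overlap (0.40, SE 0.17, limma adjusted p = 0.256). Exoc8 was at 0.36 (SE 0.17) and overlapped. Exoc3 was at 0.13 on its brightest probe set and at -0.25 and -0.59 on the other two.

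The other Rabs were grouped by their textbook site of action. Of 9 tested Rabs of the endoplasmic reticulum and Golgi, 8 had negative changes (median -0.20), where 51.4% of all tested genes were negative. An unadjusted p under 0.05 was seen for 2 of the 9, both lower, close to the 18.8% of all tested genes. Rab2b, of transport between these compartments, read 541, 776 and 679 in ethanol rats and 874, 879 and 982 in control rats. All ethanol rats lay below all controls (log2 change -0.44, limma adjusted p = 0.213), while a dimmer probe set of Rab2b was at -0.03. Rab6a, a Golgi Rab, read 890, 1200 and 927 in ethanol rats and 1338, 1241 and 1454 in control rats. The diets were again separate (-0.41, limma adjusted p = 0.231), and a dimmer probe set was at -0.09. Rab1a, which directs transport out of the endoplasmic reticulum, was at -0.08 (95% interval -0.39 to 0.23).

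Of 10 tested endosomal and lysosomal Rabs, 7 had positive and 3 negative changes (median 0.30), where 51.4% of all tested genes were negative. An unadjusted limma p under 0.05 was seen for 3 of the 10, 2 higher and 1 lower, against 18.8% of all tested genes. Of the 7 with positive changes, Rab22a, Rab5b and Rab7a had a second tested probe set of the opposite sign, at -0.09, -0.24 and -0.29. Rab5c had the largest positive change of the tested members (0.80, SE 0.46, limma adjusted p = 0.393), with overlapping diets. It cleared the filter through the ethanol rats, with a mean log2 intensity of 9.54 there and 8.75 in control rats. Rab22a, of endosomal recycling, read 2052, 1873 and 2204 in ethanol rats and 1222, 1711 and 1441 in control rats. Every ethanol rat lay above every control (log2 change 0.48, limma adjusted p = 0.182). Rab4a, of fast recycling, read 874, 1334 and 1097 in ethanol rats and 872, 662 and 716 in control rats. The diets were separate by only 2 intensity units, between ethanol replicate 1 and control replicate 1 (0.51, limma adjusted p = 0.205). Rab5a, of early endosomes, had the opposite sign, at 454, 467 and 465 in ethanol rats and 569, 571 and 642 in control rats (-0.33, SE 0.13, limma adjusted p = 0.240). The ethanol rats were nearly equal and lay below all controls, while a dimmer, untested probe set of Rab5a was at 0.04. Rab7a of late endosomes was at 0.14 (SE 0.17). The medians of the Golgi and endosomal groups were not tested against each other.

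The 11 tested Rabs of recycling endosomes, the cell surface and other sites included 8 with negative changes (median -0.12), where 51.4% of all tested genes were negative. An unadjusted limma p under 0.05 was seen for 2 of the 11, both lower, against 18.8% of all tested genes. Rab12 read 297, 327 and 397 in ethanol rats and 488, 422 and 636 in control rats, lower in every ethanol rat (log2 change -0.52, limma adjusted p = 0.189). Like Cadps it cleared the filter through the control rats, with a mean log2 intensity of 8.60 in ethanol rats and 9.13 in control rats. Rab40c read 475, 392 and 466 in ethanol rats and 500, 680 and 728 in control rats, again lower in every ethanol rat (-0.46, limma adjusted p = 0.218). Rab11a, of apical recycling endosomes, was at -0.30 (SE 0.18) and Rab8a, of transport to the apical surface, at 0.16 (SE 0.20), each with overlapping diets. Of 7 Rab partners whose symbols begin with that of a Rab, 4 were tested. Rab5if, named for its interaction with Rab5, read 5521, 5209 and 5258 in ethanol rats and 7034, 6920 and 6874 in control rats. The gap between the diets was wider than the spread within either (-0.38, SE 0.13, limma adjusted p = 0.181). Rab11fip4, an effector of Rab11, was at 0.27 (SE 0.14) and higher in every ethanol rat.

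The 29 genes under the filter were Exoc1, Exoc3l1, Exoc3l2, Exoc5, Rab3a, Rab3c, Rab3il1, Rab3ip, Rab4b, Rab6b, Rab8b, Rab11fip3, Rab15, Rab23, Rab27a, Rab38, Rab39a, Snap25, Snap91, Stx6, Stx17, Syt2, Syt6, Syt7, Syt10, Syt12, Syt13, Syt17 and Vamp7. On 6 of them (20.7%) the diets did not overlap, against 13.4% of all genes under the filter. These were Syt10 and Syt12, higher in ethanol, and Exoc5, Rab27a, Rab3il1 and Syt17, lower in ethanol. Rab3il1, an exchange factor for the Rab3 family and Rab8, read 200, 94 and 53 in ethanol rats and 337, 233 and 233 in control rats. Rab4b was below 0 on 5 of 6 arrays.

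**Figure D2:**
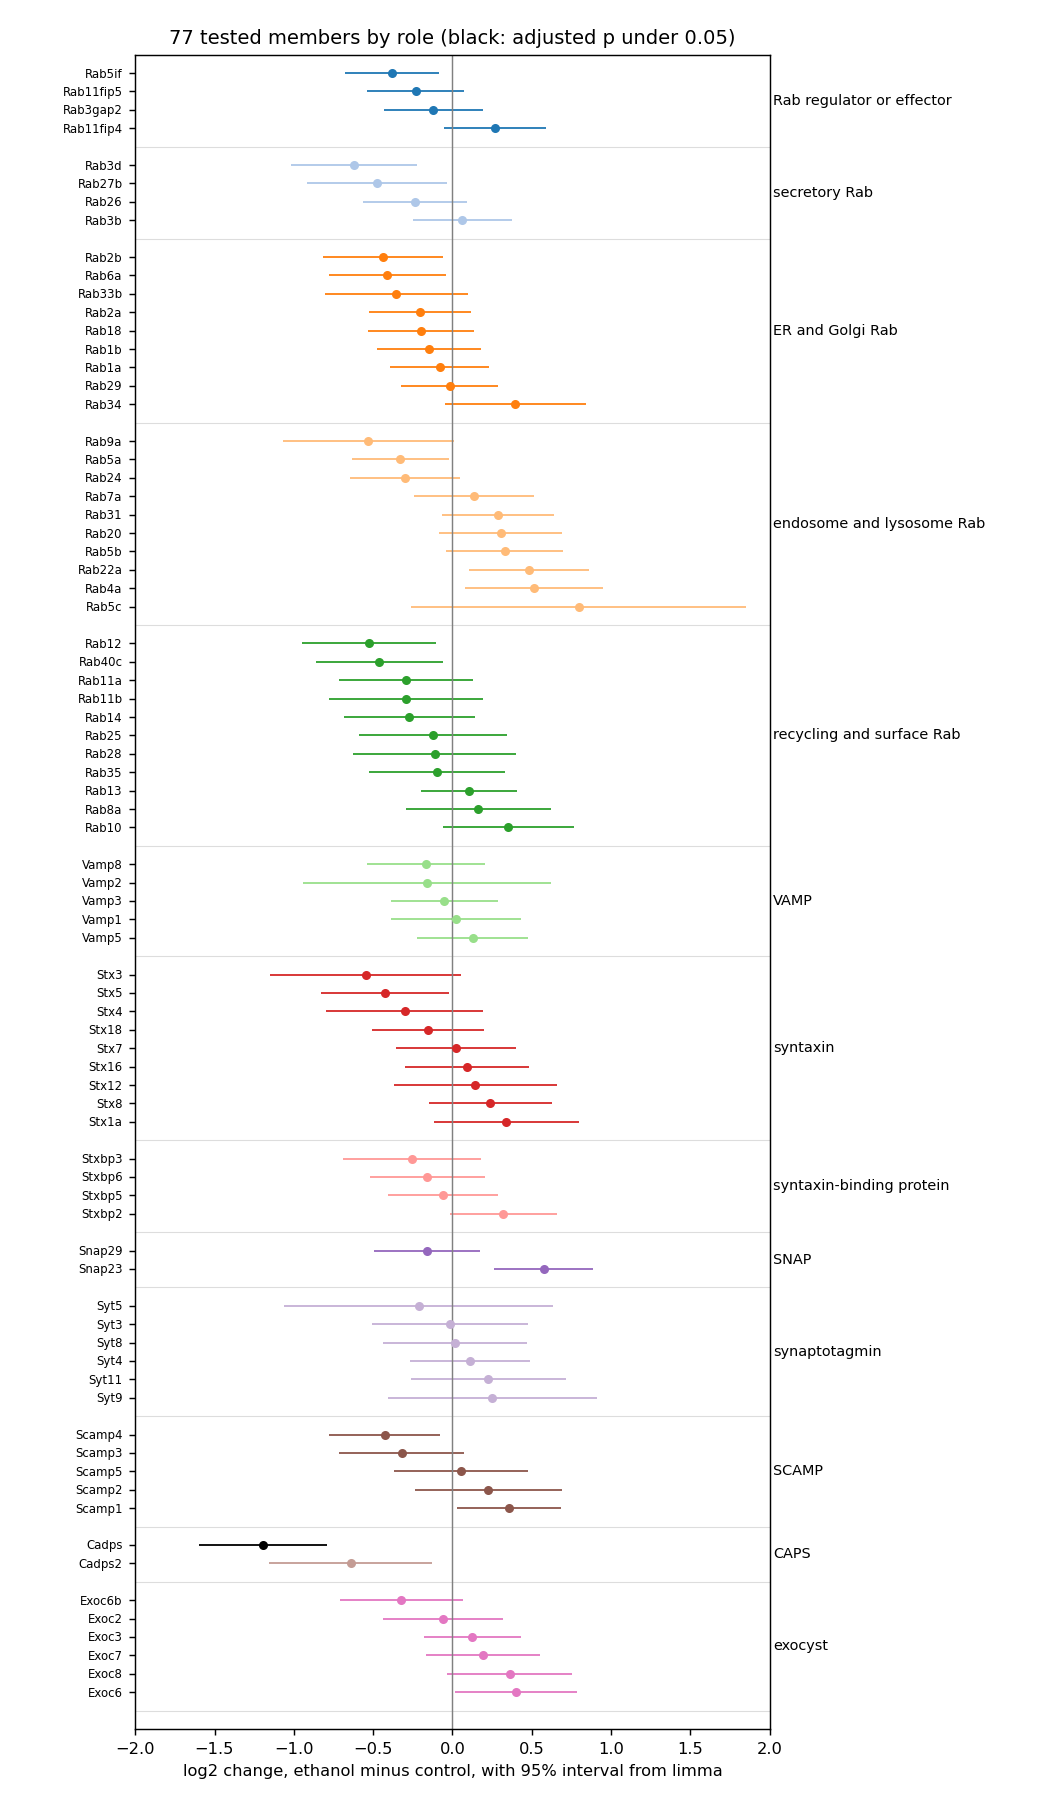
Log2 change (ethanol minus control, horizontal axis) with the 95% interval from limma for the 77 tested genes, grouped by role down the page. Cadps, drawn in black at -1.19, is the one that passed; Snap23 at 0.57 and Rab3d at -0.62 did not.

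Taken as a list, the genes differed between the diets about as often as other genes did. At an unadjusted limma p under 0.05 there were 17 of 77 (22.1%), against 18.8% of all tested genes. The 5 higher in ethanol made 6.49%, against 7.66% of all tested genes, and the 12 lower in ethanol 15.6%, against 11.2%. On 23 of the 77 the diets did not overlap (29.9%, against 26.4% of all tested genes), with 9 of them above the controls (against 11.0% of all tested genes) and 14 below (against 15.4%). The median log2 change was -0.08 over the 77 genes and -0.01 over all tested genes, and 11.7% of the genes, against 13.2% of all, had a change of 0.5 or more in either direction. A median standard error of 0.17 limits what 3 rats per diet can show for changes of this size. Sums of 2 other marker lists were separate between the diets on the same arrays. The 3 measured erythroid markers were all higher at an unadjusted p under 0.05 without passing, with sums of 24346 to 31650 in ethanol rats and 14138 to 21085 in control rats. The 5 measured duct markers summed to 9575 to 10034 in ethanol rats and 10725 to 11898 in control rats. Muc1 carried that separation, at 7471 ± 215 in ethanol rats and 9025 ± 454 in control rats (SD, n = 3 each), while the other 4 overlapped between the diets and went in both directions. Their part in these counts was not tested. Sums of the adipocyte, endothelial, leukocyte and stellate markers overlapped between the diets. Of the 24 genes listed as known parts of the acinar secretory machinery, 21 were on the array and 19 were tested. Changes were negative for 13 and positive for 6, where 51.4% of all tested genes were negative. At an unadjusted limma p under 0.05, 4 were lower and 2 higher, against 11.2% and 7.66% of all tested genes. That list was chosen with earlier results of these data known, so its counts only describe these genes.

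**Figure D3:**
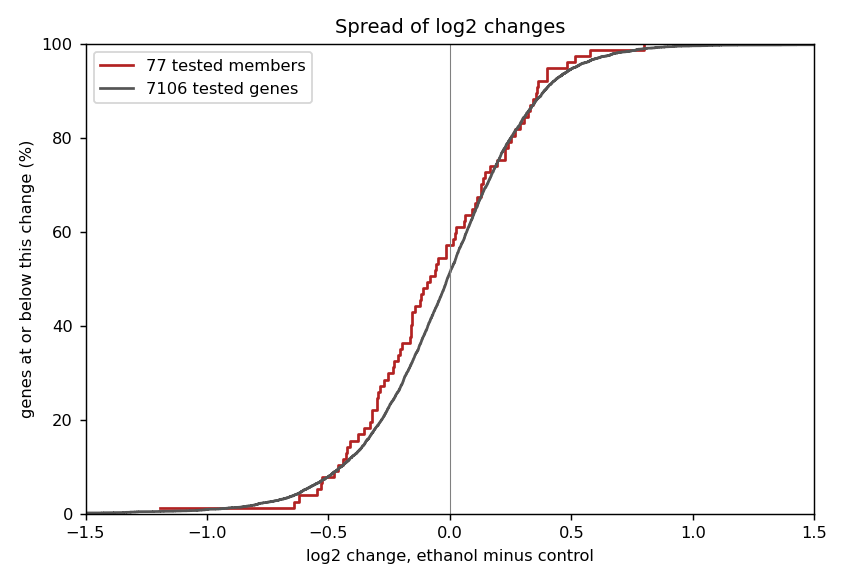
Cumulative share of genes (vertical axis, percent) by log2 change (horizontal axis, ethanol minus control) for the 77 tested members and for all 7106 tested genes. The curves run close together, with medians of -0.08 and -0.01.

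The reading of a gene could depend on the probe set. Of the 31 genes with more than 1 probe set, 14 had probe sets whose log2 changes differed in sign, 16 had the same sign on all, and Rab12 had a second probe set below 0 on every array. Among the 15 with more than 1 tested probe set, 9 had opposite signs. Rab10, a Rab of exocytic and endocytic transport, had the widest gap between tested probe sets. Its brighter probe set read 1286, 1824 and 1443 in ethanol rats and 1301, 1227 and 990 in control rats, with 1 ethanol rat inside the control range (log2 change 0.35, SE 0.18). Its dimmer one read 584, 702 and 644 in ethanol rats and 1023, 989 and 785 in control rats, below all controls (-0.50, SE 0.16). Cadps, Rab3d, Rab27b and Vamp8 have 1 probe set each, so this comparison could not be made for them. Over all 96 tested probe sets, 19 (19.8%) had an unadjusted p under 0.05, against 18.4% of all tested probe sets.

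**Figure D4:**
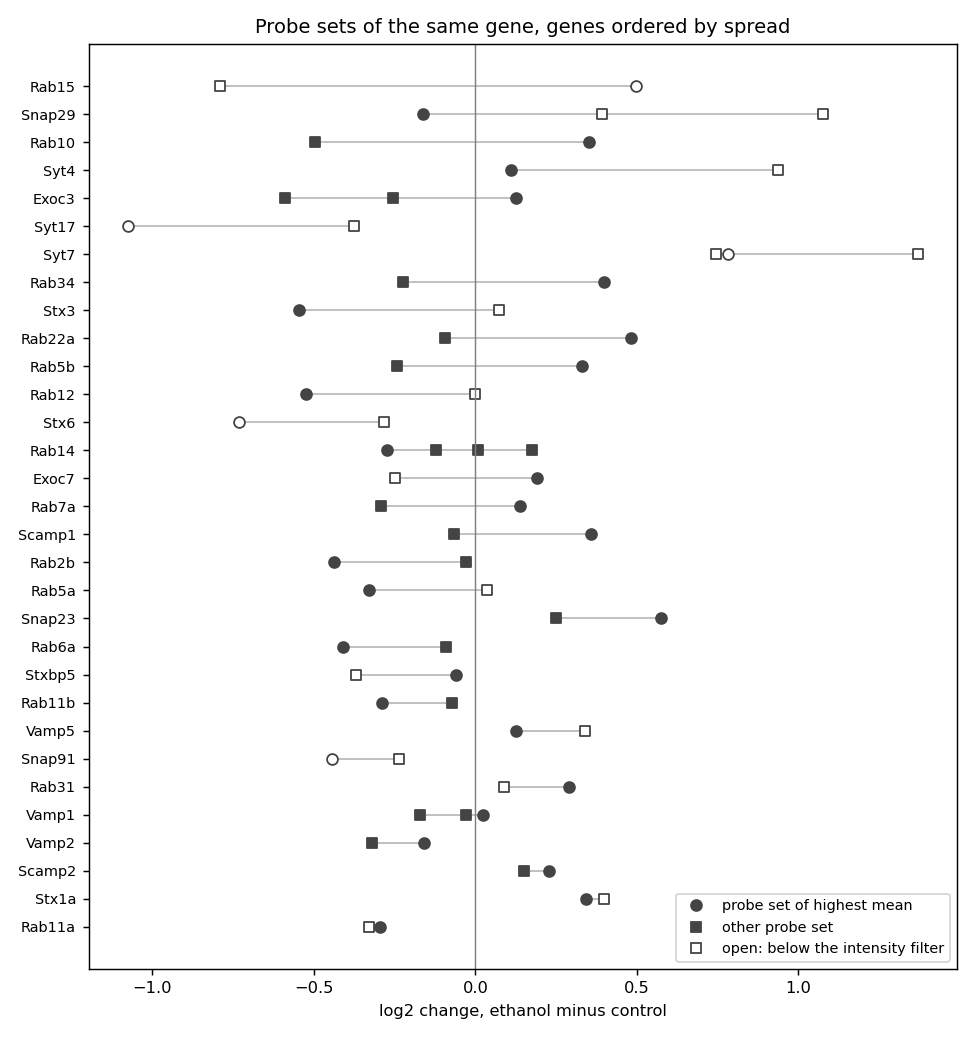
Log2 change (ethanol minus control, horizontal axis) of every probe set of the 31 genes with more than 1, ordered by spread; circles mark the probe set of highest mean, squares the others and open symbols those below the filter. Rab10 spans from -0.50 to 0.35 and Exoc3 from -0.59 to 0.13, while the 2 probe sets of Snap23 (0.25 and 0.57) lie on the same side of 0.

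A list of 83 other genes of vesicle fusion and Rab cycling that the symbol rule does not take in was read beside these. Of them 65 were on the array and 47 were tested. None passed by limma, and 2 higher and 6 lower had an unadjusted p under 0.05 (17.0% of the list, against 18.8% of all tested genes). The SNARE Bet1, of transport between endoplasmic reticulum and Golgi and a partner of Stx5, read 1617, 1752 and 1805 in ethanol rats and 2314, 2669 and 2985 in control rats. All ethanol rats lay below all controls (-0.60, SE 0.15, limma adjusted p = 0.110). Unc13b (Munc13-2), a priming factor, read 1013, 816 and 1023 in ethanol rats and 448, 656 and 723 in control rats, above all controls (0.62, SE 0.20, limma adjusted p = 0.167). The GTPase Arf6 was at -0.39 (SE 0.14) and Vps33b, a relative of the syntaxin-binding proteins, at -0.44 (SE 0.15), both without overlap and neither passing. The median over the 47 was 0.01.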

How the data were processed

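The authors deposited 1 intensity for each probe set on each array, from biotin-labelled cRNA on a single-colour array. The sources used here name no scanner, software or normalization. From the values, intensities are linear, background-subtracted (931 to 949 below 0 per array) and brought to nearly 1 distribution (medians 543 or 544), so no further normalization was applied.

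Of 15923 probe sets, 57 controls were left out. Values below 0 were set to 0, 50 was added and the log2 taken, which understates changes of dim probe sets. Probe sets at or above the 40th percentile of mean log2 value (9520) were fitted with limma 3.58.1 in R 4.3.3, 3 ethanol against 3 control arrays without a block, with Benjamini-Hochberg adjustment over all 9520. Changes are ethanol minus control. Symbols come from the platform annotation; all 106 gene IDs matched RefSeq GRCr8 with no changed symbol. No array build is given, so coordinates are printed for the RefSeq promoters alone. The number of arrays limits the precision. The fit was tested on simulated data.

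The genes, the roles and the lists were chosen with earlier results of these data known. Genes were named by rule: the 4 singled out, any that passed, in each role the 2 of smallest p and the 1 of highest mean, a list of acinar members, those with an unadjusted p under 0.05 and no overlap, and the 4 other exocytosis genes of smallest p. Rab3a, Rab3b, Rab3c, Rab5b, Rab5c, Rab10 and the genes under the filter were named outside this rule, after their values were seen. Alternatives left out each array, dropped the filter or raised it to the 60th percentile, took constants of 20 or 100, equalised medians or quantiles, added a variance trend or a replicate block, allowed an adjusted p of 0.10, or chose probe sets otherwise.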

Additional observations from a re-analysis of the deposited data

How the results depend on the processing

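Cadps kept its direction in every fit that tested it, with limma adjusted p from 0.0254 to 0.161; it is too dim for the filter at the 60th percentile. Its call was lost with a constant of 20 (-1.26, adjusted p = 0.0501), with no filter (-1.19, adjusted p = 0.161) and with the replicate block (-1.19, adjusted p = 0.1), and with each array left out (-1.28 to -1.03). The count of members that passed was therefore 0 in those fits and 0 with the filter at the 60th percentile. At an unadjusted limma p under 0.05 there were 17 of 77 members with the constant of 20, against 1732 of 9520 tested probe sets. With no filter there were 21 of 106, against 2263 of 15866, and with the block 14 of 77, against 1543 of 9520. With the stricter filter there were 13 of 59, against 1409 of 6347. With a variance trend 2 of 77 members passed, Cadps and Rab3d (-0.62, adjusted p = 0.0469), and 1 of the 47 other exocytosis genes, Bet1. In that fit 249 of all 9520 tested probe sets passed, so more calls were gained across the whole array. With each array left out, 0 members passed, where 2 to 38 of 9520 tested probe sets did. Of 76 to 78 tested members 9 to 13 had an unadjusted limma p under 0.05, against 1243 to 1726 of 9520 tested probe sets. With the mean of all probe sets the count was 11 of 69, against 1515 of 8096 genes or probe sets. Same-numbered rats did not deviate together (r of -0.03, 0.03 and -0.14), but 3 such values cannot decide whether the replicate numbers carry a pairing. Among the members and the other exocytosis genes, the block changed no adjusted call but that of Cadps. Over all 9520 tested probe sets, 39 passed in the main fit, 12 with the constant of 20 and 6 with the block. With no filter 0 of 15866 passed, and with the filter at the 60th percentile 134 of 6347. Rab3d, Rab27b and Vamp8 kept their sign in all fits. Among the genes named by rule, signs turned for Exoc3 (-0.24) and Rab7a (-0.078) with the mean of all probe sets. With an array left out they turned for Stx7 (-0.10 to 0.10), Syt8 (-0.12 to 0.17), Vamp2 (-0.53 to 0.048) and Vamp3 (-0.13 to 0.049). Rab10, at 0.35 and -0.50 on its 2 probe sets, also turned negative with their mean. None of these was called in any fit. Apart from the alternatives' own construction, where fewer arrays or more probe sets were used, the cause was not tested. Signal over background limits the 29 untested members, 7 of which were below 0 on at least 1 array.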

Other observations

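Syt7, a calcium sensor of slow granule and lysosome fusion, was under the filter on all 3 of its probe sets and was not tested. On its brightest probe set the diets overlapped (log2 change 0.78). On the next it read 336, 203 and 305 in ethanol rats and 144, 69 and 37 in control rats, without overlap (1.37). On the dimmest, 1 ethanol and all 3 control values were below 0, so no size is given. These were chosen after their values were seen.

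The array also holds 2 probe sets annotated to both Rab1a and Rab1b, which belong to neither gene alone. One read 330, 312 and 272 in ethanol rats and 316, 354 and 333 in control rats, with overlap, and the other did not exceed 71 on any array.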
